A study of Mus musculus with 16 samples.

Results

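All 8 tumors treated with aPD-1, an antibody that blocks the PD-1 receptor, were compared with all 8 tumors given control IgG, by the treatment as labelled and whatever their response status. The tumors were chosen by their treatment label alone, and together they are the 16 bulk RNA libraries of the series. MC38 is a mouse colon adenocarcinoma cell line, and its cells were placed under the skin of the right flank of female C57BL/6 mice of 6 to 8 weeks of age. Mice entered treatment at a tumor volume of 150 to 250 mm3, received 200 µg of antibody on days 16 and 20, and their tumors were taken on day 21. Each library came from another mouse, so the spread between libraries is a spread between mice. The 8 IgG tumors are named IgG 1 to IgG 8 and the 8 treated tumors aPD-1 9 to aPD-1 16. Of the treated tumors, the study labelled 6 as non-responders (NR, aPD-1 9 to 14) and 2 as responders (R, aPD-1 15 and 16) by their staining for CD8 T cells, so the CD8 T cell content of the treated tumors is what the labels were set on. The model is 1 transplanted line in 1 inbred strain, and a bulk library holds tumor cells, host cells and adjoining tissue alike.

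PD-1 is an inhibitory receptor of activated T cells. Its ligand PD-L1, encoded by Cd274, is made by tumor and myeloid cells and is itself induced by interferon gamma, the cytokine that activated T cells and NK cells release. Promoters of genes that answer to interferon gamma can hold the gamma-activated site (GAS) and the repeated GAAA letters that interferon regulatory factors bind. The cytokine turns on chemokines, antigen presentation genes and families of large GTPases that defend cells against intracellular microbes.

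The list of interferon-induced GTPases, which does not hold Mx1, is shown first: all 21 members were higher on average in the aPD-1 tumors. With the 2 responders left out, 20 of 21 still had an unadjusted p below 0.05 in the higher direction, where 2.45% of all genes did. None passed the adjusted threshold there (smallest adjusted p 0.918). The T cell receptor genes, 18 of 18 with all 16 tumors, were 6 of 18 there. To show the letters before their start sites, the 250 bases before the start site were read for 12 of the 21 members that have an entry in the RefSeq promoter table (build GRCm38.p6). Of these 12, 11 held GAAA followed, after any 2 bases, by GAAA on either strand (91.7%), against 3.46% of 27025 genes in the table. The GAS letters TTCNNNGAA, which read the same on both strands, were held by 7 of 12 (58.3%), against 8.13% of all genes, and the same 7 held both motifs (58.3% against 0.4%). Among the interferon gamma response genes, 10 of 17 had an entry, and 2 of the 10 held each motif (20.0%), Irf1 with a GAS among them. Among the type I interferon genes 8 of 17 with an entry held the GAAA repeat (47.1%) and 3 of 17 the GAS (17.6%), and among MHC class I genes 3 of 16 (18.8%) and 1 of 16 (6.25%), so the letters are not particular to the GTPases. The windows of Gbp5 (chr3:142496684-142496933, plus strand), Tgtp1 (chr11:48992247-48992496, minus strand), Tgtp2 (chr11:49064213-49064462, minus strand) and Irf1 (chr11:53769764-53770013, plus strand) are given 5′ to 3′ up to the base before the start site, with each match to a motif in capitals (the Irf1 window holds the GAS only). Tgtp1 is shown because it was among the 10 genes of smallest p in the higher direction. Gbp5 was among the 27 genes that 3 other fits, given below, all called. Tgtp1 and Tgtp2 are a pair of related genes, and Irf1 encodes a factor that reads the GAAA repeat.
Gbp5: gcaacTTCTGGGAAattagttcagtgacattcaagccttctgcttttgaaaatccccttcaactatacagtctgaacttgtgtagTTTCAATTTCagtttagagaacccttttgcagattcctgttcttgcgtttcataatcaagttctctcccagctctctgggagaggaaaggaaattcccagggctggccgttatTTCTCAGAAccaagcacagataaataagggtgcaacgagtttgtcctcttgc
Tgtp1: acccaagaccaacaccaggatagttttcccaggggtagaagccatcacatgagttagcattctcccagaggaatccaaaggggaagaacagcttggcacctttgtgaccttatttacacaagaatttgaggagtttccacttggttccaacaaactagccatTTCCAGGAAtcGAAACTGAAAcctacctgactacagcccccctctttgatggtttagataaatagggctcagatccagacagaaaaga
Tgtp2: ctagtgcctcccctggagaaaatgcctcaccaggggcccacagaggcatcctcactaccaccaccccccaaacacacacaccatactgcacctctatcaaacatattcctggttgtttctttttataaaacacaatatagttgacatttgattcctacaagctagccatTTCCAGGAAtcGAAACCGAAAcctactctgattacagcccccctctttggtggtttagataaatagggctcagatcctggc
Irf1: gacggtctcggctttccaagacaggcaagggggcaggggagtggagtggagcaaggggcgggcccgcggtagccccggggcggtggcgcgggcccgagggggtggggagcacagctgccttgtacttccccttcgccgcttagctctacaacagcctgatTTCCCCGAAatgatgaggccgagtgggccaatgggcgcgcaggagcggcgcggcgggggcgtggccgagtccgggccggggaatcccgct
A match of letters is a description of the window, and binding was not measured. No window of the cholesterol synthesis genes was printed, since of 14 with an entry 1 held each motif (7.14%).

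Libraries held 26603449 to 39948866 counts, and 15417 to 17296 genes had at least 10 counts. IgG 1 stood apart from the other IgG tumors: it had the fewest counts, 7.60% of them from mitochondrial genes against 2.52% to 3.21% in the other 7, and the largest median distance from the per-gene median of all tumors (0.50 on the log2 scale, against 0.09 to 0.36 in the other 15). In IgG 3 a ribosomal RNA entry took 20.4% of the counts, against 0.151% to 0.489% elsewhere. aPD-1 9 and 14 had mitochondrial shares of 6.00% and 5.73%, and the median SD over genes of log2 CPM (CPM, the usual per-library scaling of a gene's counts, here with TMM-adjusted library sizes) was 0.312 in the 8 IgG tumors, 0.185 without IgG 1, and 0.319 in the 8 aPD-1 tumors. None of 4 library measures differed between treatments in an exact two-sided permutation test after adjustment. The smallest p was 0.0437 (adjusted 0.175), for genes with at least 10 counts, which were 489 more on average in aPD-1 tumors. Cdx2, a transcription factor of intestinal epithelium, was at or near 0 in every tumor, with at most 0.0258 CPM, so the colonic origin of the line was not visible in its defining marker.

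No gene passed an adjusted p of 0.05 when the 8 aPD-1 tumors were set against the 8 IgG tumors by the quasi-likelihood test of edgeR, with Benjamini-Hochberg adjustment over all genes tested. Of 15775 genes tested, 1448 (9.18%) were higher and 352 (2.23%) lower in aPD-1 tumors at an unadjusted p below 0.05, and the smallest adjusted p was 0.223. The same table in DESeq2 gave 88 genes higher (0.558%) and 3 lower (0.019%) at an adjusted p below 0.05, and limma-voom, which weighted tumors by their spread, gave 78 higher (0.494%) and 7 lower (0.0444%). When IgG, NR and R tumors were fitted as 3 groups, with the NR and R log2 fold changes weighted 6 to 2 as the contrast, 392 genes were higher (2.48%) and 8 lower (0.0507%). DESeq2 and limma-voom shared 28 genes, 30.8% of the first set and 32.9% of the second. Of the 27 genes that all 3 of these fits called, 26 were higher and 1, Prkar2a, was lower. These fits differ from the edgeR test in more than 1 way, the fit by response status in its contrast too, and which difference moved the count was not tested. At an unadjusted p below 0.05 the shares of genes higher and lower were 9.1% and 3.16% in DESeq2, 7.58% and 5.77% in limma-voom, and 9.64% and 3.58% in the fit by response status. The fold changes that follow are those of the edgeR test, aPD-1 over IgG, and none of them passed the adjusted threshold with all 16 tumors.

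**Figure D1:**
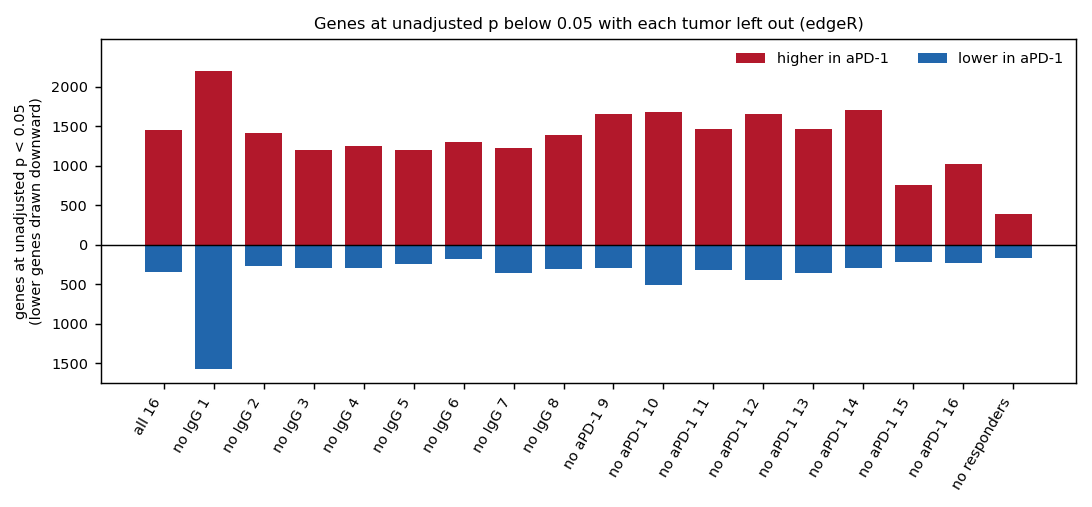
Genes at an unadjusted p below 0.05 (edgeR) on the vertical axis, with those higher in aPD-1 tumors drawn upward and those lower drawn downward, for all 16 tumors, with each tumor left out in turn and without both responders. Without IgG 1 the bars grew to 2203 and 1572 genes, and without both responders they were 390 and 169.

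Which tumors entered the test also changed these counts. Without IgG 1, 2203 genes were higher (13.9%) and 1572 lower (9.88%) at an unadjusted p below 0.05, and 8 passed the adjusted threshold, 7 higher (0.044%) and 1 lower (0.00629%). Socs1, Ly6a, Gbp8, Ubd, Bglap2, Gm4841 and Psmb9 were higher and Elovl6, a fatty acid elongase, lower in that fit. With IgG 3 left out as well, a set chosen after seeing the data, 0 genes passed the adjusted threshold. Ly6a and Ubd then had adjusted p values of 0.087 and 0.0603. Without both responders 390 genes were higher (2.45%) and 169 lower (1.06%), none passed the adjusted threshold, and the smallest adjusted p was 0.498. Values of single genes given below as without the responders therefore carry no p. Counts of list members without the responders use the unadjusted p. With each tumor left out in turn, 759 (without aPD-1 15) to 2203 genes were higher and 185 (without IgG 6) to 1572 lower. In the plot of tumors left out, the count of higher genes moved by more than 1.5 times without IgG 1 or aPD-1 15, and that of lower genes without IgG 1, IgG 6 (185) or aPD-1 15 (214).

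The 10 genes of smallest p among those higher in aPD-1 tumors were Ifitm1, Bcl2a1d, Ly6a, Ubd, Cxcl9, Pla2g16, AA467197, Cd274, Serpina3f and Tgtp1, with log2 fold changes of 0.44 to 1.49. In each of the 10, at least 5 of 8 treated tumors lay above every IgG tumor, and the log2 fold change without the responders lay between 0.37 and 1.32. The 10 were chosen by p in these same tumors, so this separation follows in part from the choice. For such counts, here and below, the share over all genes was taken only where all 8 treated tumors lay above or below. Ifitm1 (chr7:140967221-140969825, GRCm38), an interferon-induced membrane protein that restricts virus entry, lay between 5.52 and 11.9 CPM in the IgG tumors (median 8.10) and between 11.6 and 30.5 in the aPD-1 tumors (median 20.0). Only the lowest treated tumor, aPD-1 9, overlapped the IgG range. The log2 fold change was 1.25 ± 0.21 (SE, adjusted p = 0.223) and 1.32 without the responders, whose values of 16.6 and 18.6 CPM were below those of 4 non-responders.

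Ly6a (chr15:74994877-74998031), which encodes the surface antigen Sca-1, ranged from 176 to 331 CPM in IgG tumors (median 210) and from 305 to 457 in aPD-1 tumors (median 424). The highest IgG tumors, 1 and 8, lay within the range of the treated tumors and above aPD-1 10, the lowest of them. Its log2 fold change was 0.75 ± 0.14 (SE, adjusted p = 0.223), and with IgG 1 left out it was 0.81 with an adjusted p of 0.0431. Ubd, which encodes the ubiquitin-like modifier FAT10, ranged from 9.0 to 21.7 CPM in IgG tumors (median 10.5) and from 15.7 to 34.3 in aPD-1 tumors (median 29.2), a log2 fold change of 1.08 ± 0.21 (SE). For Ubd, 5 of 8 treated tumors lay above all IgG tumors, and without IgG 1 the log2 fold change was 1.23 (adjusted p = 0.0383). Serpina3f, a serine protease inhibitor gene, had the largest log2 fold change of the 10, 1.49 ± 0.32 (SE), from a median of 2.43 CPM in IgG to 7.09 CPM in aPD-1 tumors. The responders held 9.11 and 15.2 CPM of it, and without them the log2 fold change was 1.13.

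Pla2g16, a phospholipase gene, had 7 of 8 treated tumors above all IgG tumors (50.5 to 61.5 CPM in IgG and 59.4 to 101 in aPD-1), with a log2 fold change of 0.48 ± 0.10 (SE). Bcl2a1d, which encodes a BCL2-related protein that protects leukocytes from apoptosis, likewise had 7 of 8 above (11.2 to 13.5 CPM in IgG and 13.2 to 17.7 in aPD-1), with a log2 fold change of 0.44 ± 0.08 (SE). It is one of several near-identical genes: Bcl2a1b was 0.42 and Bcl2a1a 0.40 higher on the log2 scale, and the counting shared reads among them by estimate. The same holds for Tgtp1 and Tgtp2, for neighbouring Gbp genes and for the Ly6 and H2 families, whose single values are uncertain to that extent.

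**Figure D2:**
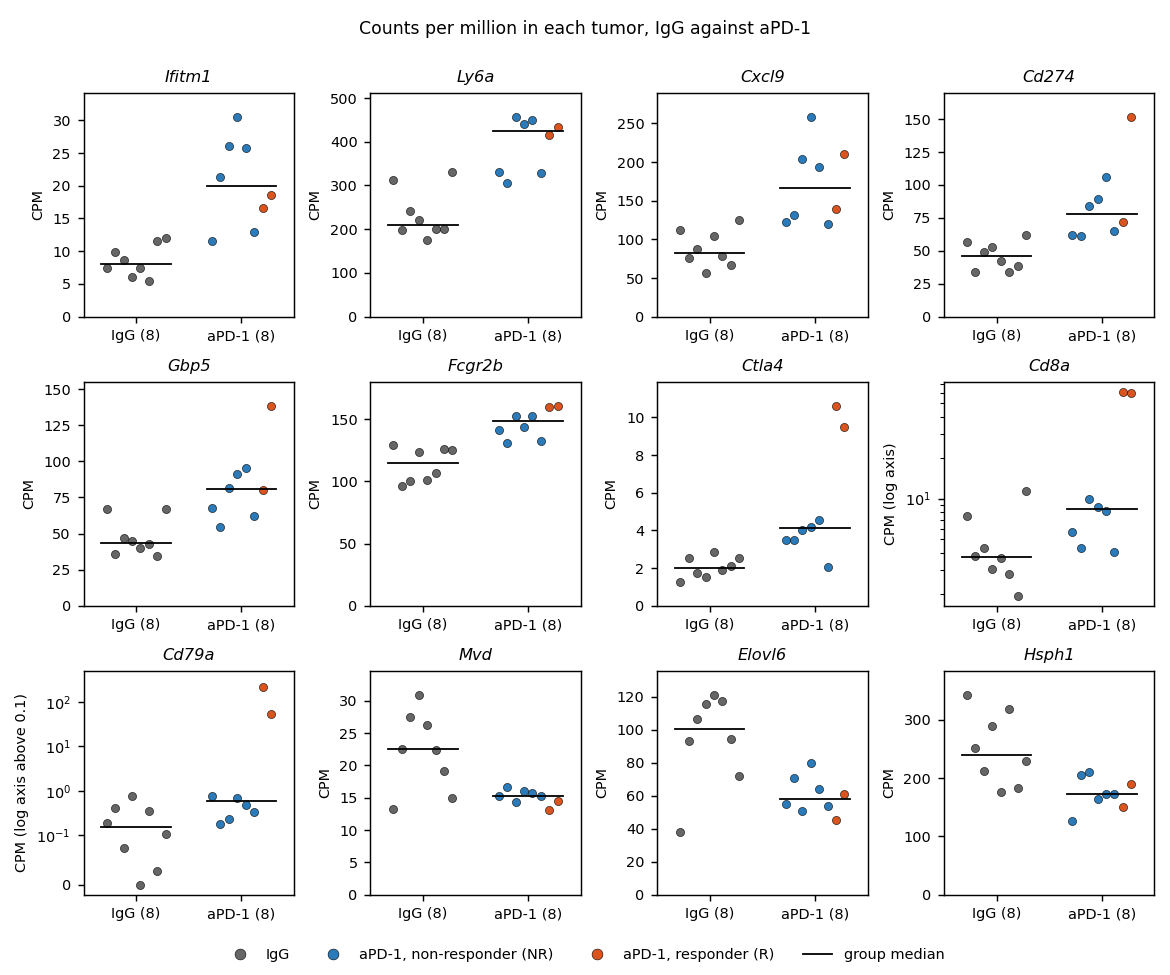
CPM in each tumor for 12 genes, IgG on the left and aPD-1 on the right of each panel, with NR and R tumors in separate colours and a line at each group's median. The axes of Cd8a and Cd79a are logarithmic (that of Cd79a linear under 0.1) and the others start at 0. Fcgr2b shows no overlap between the groups, and Cd79a lies at 53.1 and 218 CPM in the responders against at most 0.774 CPM in the other 14 tumors.

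Non-overlap of all 8 against all 8 tumors was rare. Of 15775 genes, 3 (0.019%) lay higher in every aPD-1 tumor than in any IgG tumor and 1 (0.00634%) lay lower. Fcgr2b, the inhibitory Fc gamma receptor of myeloid and B cells (chr1:170958617-170976547), lay between 96.6 and 129 CPM in IgG tumors (median 115) and between 131 and 161 in aPD-1 tumors (median 148), a log2 fold change of 0.37 ± 0.08 (SE). Slc39a4, a zinc importer gene with few counts, lay between 0.420 and 0.926 CPM and between 0.968 and 1.92 CPM. Pik3ip1, which encodes an inhibitor of PI3 kinase, lay between 8.82 and 13.3 CPM in IgG, between 13.6 and 18.6 in NR and at 27.9 and 25.0 CPM in the responders. Maged1, a MAGE family gene, was the 1 gene lower in every aPD-1 tumor (337 to 380 CPM in IgG and 217 to 333 in aPD-1), with a log2 fold change of -0.27 ± 0.08 (SE). The adjusted p values of these 4 genes lay between 0.223 and 0.244.

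The target of the treatment and its ligands were measured in every tumor. Pdcd1, which encodes PD-1, lay between 1.34 and 4.60 CPM in IgG tumors (median 2.01) and between 1.02 and 9.87 in aPD-1 tumors (median 4.98). The treated tumors spread to both sides of the IgG range, with 5 above all IgG tumors and 2 below, and the log2 fold change of 1.07 ± 0.42 (SE, adjusted p = 0.337) was 0.67 without the responders. Cd274 (chr19:29367455-29388095), which encodes PD-L1, lay between 34.0 and 62.1 CPM in IgG tumors (median 45.8) and between 61.4 and 152 in aPD-1 tumors (median 78.3). Of the 8 treated tumors, 6 lay above all IgG tumors. The log2 fold change was 0.90 ± 0.19 (SE, adjusted p = 0.223), and 0.75 without the responders. Pdcd1lg2, which encodes the other ligand PD-L2, went from a median of 0.587 to 2.82 CPM, with 13.7 CPM in aPD-1 16 alone and at most 3.67 in the other treated tumors (log2 fold change 2.36 ± 0.64, SE, adjusted p = 0.223). The phosphatases that act below PD-1 differed from each other in their values: Ptpn6 (SHP-1) was 0.69 ± 0.25 (SE) higher on the log2 scale, and 0.19 without the responders, while Ptpn11 (SHP-2) had a log2 fold change of -0.20 ± 0.14 (SE, adjusted p = 0.662).

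Interferon gamma itself and the genes that answer to it were higher in most treated tumors. Ifng lay between 0.357 and 1.96 CPM in IgG tumors (median 0.627) and between 0.726 and 7.48 in aPD-1 tumors (median 2.06), a log2 fold change of 1.63 ± 0.45 (SE, adjusted p = 0.223) and 1.21 without the responders. Of the 17 interferon gamma response genes, 15 had p below 0.05 in the higher direction and 0 in the lower, and their median log2 fold change was 0.90, against -0.01 over all genes tested. Without the responders 12 of 17 had p below 0.05 and the median was 0.60. Over all genes the shares were 9.18% with all tumors and 2.45% without the responders. Cxcl9 (chr5:92321347-92328079), a chemokine gene whose product draws CXCR3-bearing T cells, ranged from 55.9 to 125 CPM in IgG tumors (median 82.6) and from 119 to 259 in aPD-1 tumors (median 166). For Cxcl9, 6 of 8 treated tumors lay above all IgG tumors, and its log2 fold change of 0.96 ± 0.19 (SE) was the same, 0.96, without the responders. The related Cxcl10 and Cxcl11 had log2 fold changes of 0.51 ± 0.17 and 0.94 ± 0.27 (SE). Irf1, with a GAS in its promoter window, went from a median of 266 to 387 CPM (log2 fold change 0.34 ± 0.13, SE). For Irf1 the highest tumor was an IgG tumor, IgG 1, at 483 CPM, and without IgG 1 its log2 fold change was 0.48 (adjusted p = 0.0539). Socs1, the feedback inhibitor of the pathway, showed the same pattern: IgG 1 held 26.8 CPM against a range of 9.89 to 21.3 in aPD-1 tumors, and its adjusted p went from 0.471 to 0.0431 without IgG 1. Ciita, the regulator of MHC class II genes, rested more on the responders (log2 fold change 1.84 ± 0.52, SE, and 0.57 without them), and the receptor gene Ifngr1 had a log2 fold change of 0.13 ± 0.09 (SE, adjusted p = 0.634).

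All 21 listed interferon-induced GTPases had p below 0.05 in the higher direction (9.18% of all genes did), with a median log2 fold change of 0.75 and values of 0.31 to 1.57. Mx1, a GTPase induced by interferon too, is counted with the type I interferon genes below. Gbp5 (chr3:142493978-142522344), a guanylate-binding protein gene, lay between 34.6 and 66.8 CPM in IgG tumors (median 43.7) and between 54.4 and 138 in aPD-1 tumors (median 80.9). Of the treated tumors, 6 lay above all IgG tumors, and the log2 fold change was 0.83 ± 0.19 (SE, adjusted p = 0.223), and 0.68 without the responders. Tgtp1, an immunity-related GTPase gene, went from a median of 35.0 to 112 CPM (1.31 ± 0.29, SE) and Tgtp2 from 104 to 220 CPM (0.85 ± 0.19, SE). Irgm1, a regulator of the same family, went from a median of 196 to 278 CPM (0.49 ± 0.12, SE), and Iigp1 from 183 to 382 CPM (0.88 ± 0.20, SE). The largest value was that of Gbp2b (1.57 ± 0.48, SE), a gene of few counts in IgG tumors (median 1.23 CPM), and the smallest adjusted p of the list was 0.223. DESeq2 called 8 of the 21 (0.558% of all genes were called higher), limma-voom 9 (0.494%) and the fit by response status 6 (2.48%). The median of the list was 0.73, 0.79 and 0.75 in these fits.

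The treated tumors did not share 1 level of these genes, and neither did the IgG tumors. Scored as log2 CPM averaged over the 21 GTPases minus its mean over all tumors, 6 of 8 IgG tumors lay between -0.81 and -0.41, while IgG 1 was at 0.25 and IgG 8 at 0.31. The non-responders aPD-1 10, 14 and 9 were at -0.01, 0.09 and 0.23, below IgG 8, and aPD-1 11, 13 and 12 at 0.45, 0.64 and 0.83. The responders, at 0.31 (aPD-1 15) and 0.83 (aPD-1 16), lay within the range of the non-responders. All 8 treated tumors lay above the IgG median of -0.61, and 5 above all IgG tumors. The lowest of these 5, aPD-1 15, was nearly level with IgG 8 (0.3094 against 0.3063). aPD-1 9 and 14, 2 of the 3 lowest treated tumors, and IgG 1, 1 of the 2 highest IgG tumors, were also the 3 libraries with the largest mitochondrial shares. The part of that in these values was not tested. IgG 8 had a mitochondrial share of 2.82%, inside the range of the other IgG tumors.

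**Figure D3:**
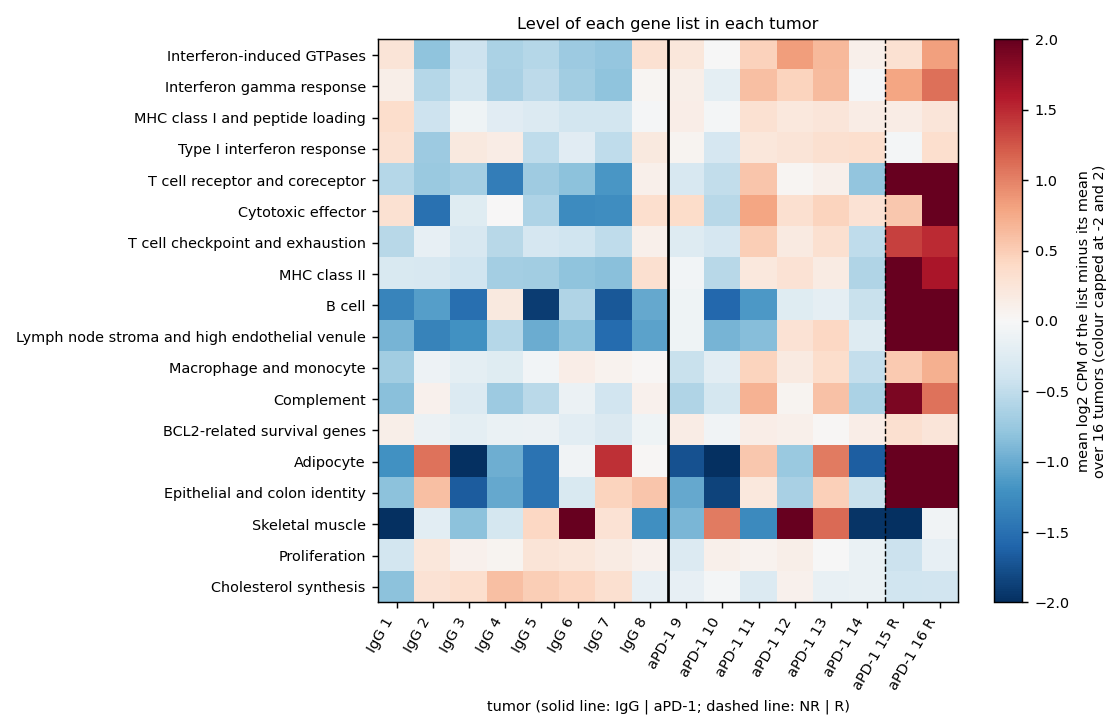
Level of 18 gene lists in each library, as log2 CPM averaged over the tested genes of a list minus its mean over the 16 libraries, with colour capped at -2 and 2. Interferon GTPases are above the IgG median in all 8 treated tumors, as are the interferon gamma, MHC class I, BCL2-related and lymph node lists. B cell, T cell, lymph node, fat and epithelial genes stand out in aPD-1 15 and 16, and skeletal muscle genes in IgG 6.

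Genes that answer mainly to type I interferon stood at smaller values. Of 25 members 2 had p below 0.05 in the higher direction, the median log2 fold change was 0.24, and without the responders 3 of 25 had p below 0.05. The share over all genes was 9.18% with all tumors and 2.45% without the responders. Without IgG 1 the count was 9 of 25 (median 0.35, against 13.9% of all genes), and in limma-voom 10 of 25 (median 0.39, against 7.58%). Isg15, a ubiquitin-like modifier, lay between 69.7 and 246 CPM in IgG tumors and between 82.5 and 221 in aPD-1 tumors (log2 fold change 0.21 ± 0.25, SE, adjusted p = 0.824). Mx1, an antiviral GTPase, had 0.28 ± 0.27 (SE), Ifit1 0.17 ± 0.18 and Rsad2 0.16 ± 0.18, and the groups overlapped over most of their range. The difference between this list and the gamma list was not tested, and many genes answer to both interferons. In the IFITM family Ifitm1 had the value given above, Ifitm3 0.29 ± 0.12 (SE, adjusted p = 0.369) and Ifitm2 0.04 ± 0.07 (SE, adjusted p = 0.896). Of the 7 members, 4 had enough counts to be tested.

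MHC class I genes and the machinery that loads peptides onto them were modestly higher. Of 17 members, 10 had p below 0.05 in the higher direction (median log2 fold change 0.30), and 11 of 17 without the responders (median 0.32). The shares over all genes were 9.18% and 2.45%. H2-K1, a class I heavy chain, ranged from 1266 to 1895 CPM in IgG tumors and from 1480 to 2371 in aPD-1 tumors (log2 fold change 0.36 ± 0.11, SE, adjusted p = 0.249). B2m, the light chain, had 0.37 ± 0.14 (SE), Tap1, a subunit of the peptide transporter, 0.50 ± 0.14, and Psmb8, an immunoproteasome subunit, 0.24 ± 0.09. Psmb9, another immunoproteasome subunit, lay between 57.1 and 141 CPM in IgG tumors, IgG 1 being the highest of all 16 tumors, and between 80.7 and 118 in aPD-1 tumors. With IgG 1 left out its log2 fold change went from 0.48 to 0.67 and its adjusted p from 0.288 to 0.0383.

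MHC class II genes, which professional antigen-presenting cells express, had another pattern. All 9 tested members had p below 0.05 in the higher direction (median log2 fold change 0.83), but 1 of 9 without the responders (median 0.36). Over all genes the shares were 9.18% and 2.45%. H2-Aa lay between 151 and 506 CPM in IgG, between 241 and 500 in NR, and at 910 and 628 CPM in the responders. H2-Ob, a class II chain typical of B cells, lay between 1.28 and 2.48 CPM in IgG, between 0.998 and 3.02 in NR and at 182 and 50.7 CPM in the responders, a log2 fold change of 4.10 ± 1.08 (SE) that was 0.22 without them. In bulk samples a higher level cannot be told apart as more cells of a type or more RNA in each cell, here and in the cell type lists that follow.

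**Figure D4:**
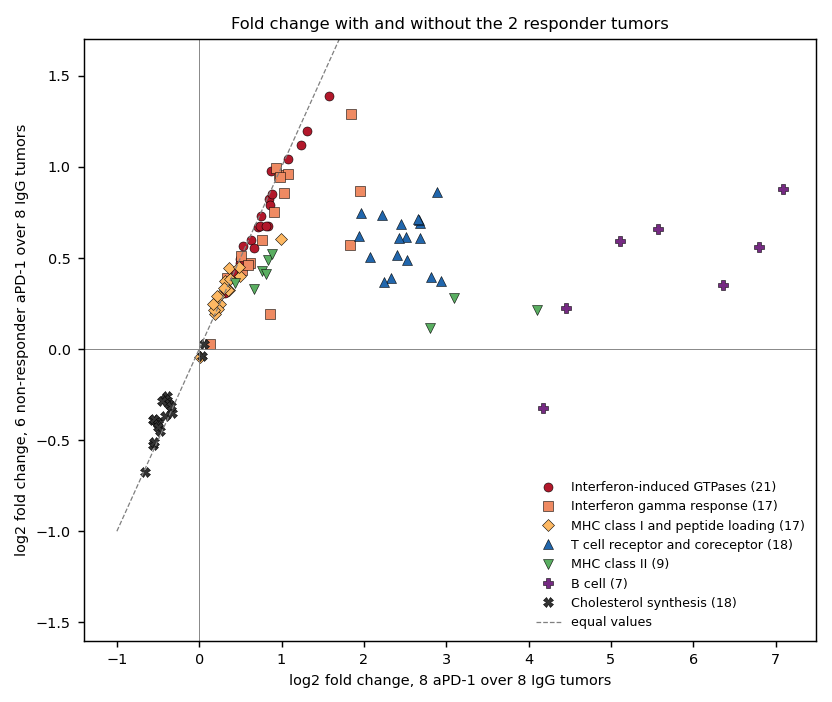
Log2 fold change of aPD-1 over IgG tumors with all 8 treated tumors (horizontal axis) and with the 6 non-responders only (vertical axis) for the tested members of 7 gene lists. The dashed line marks equal values. Without the responders the median was 0.68 for interferon GTPases (0.75 with them), 0.32 for MHC class I (0.30) and -0.37 for cholesterol synthesis (-0.46). That of the interferon gamma response genes fell further, from 0.90 to 0.60. T cell and B cell genes lie far to the right of the line.

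T cell genes were higher on average in aPD-1 tumors, and most of the size came from the responders, which were so labelled by CD8 T cell staining. All 18 T cell receptor and coreceptor genes had p below 0.05 in the higher direction (median log2 fold change 2.48), and 6 of 18 without the responders (median 0.61), where all 18 were still above 0. Among all genes tested, 9.18% and 2.45% were higher at that p. With all 16 tumors the median was 2.13 in DESeq2, 1.47 in the fit by response status and 0.94 in limma-voom. These fits called 11, 18 and 0 of the 18 genes, where they called 0.558%, 2.48% and 0.494% of all genes higher. Cd8a, a chain of the coreceptor of cytotoxic T cells, lay between 1.93 and 11.4 CPM in IgG (median 3.72), between 4.08 and 9.96 in NR, and at 60.8 and 59.9 CPM in the responders. No non-responder lay above the highest IgG tumor, IgG 8, and the log2 fold change of 2.07 ± 0.63 (SE, adjusted p = 0.243) was 0.50 without the responders. Cd4, the coreceptor of helper T cells, lay between 0.694 and 2.20 CPM in IgG, between 0.883 and 2.99 in NR and at 45.6 and 35.8 in the responders. Icos, a costimulatory receptor gene, showed a larger value among non-responders, with 4 of 6 above all IgG tumors (log2 fold change 0.75 without the responders).

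Ctla4, which encodes another inhibitory receptor of T cells, was among the 27 genes that all 3 other fits called. It lay between 1.27 and 2.85 CPM in IgG (median 1.99), between 2.04 and 4.54 in NR and at 10.6 and 9.50 in the responders, with 5 of 6 non-responders above all IgG tumors. Its log2 fold change was 1.34 ± 0.31 (SE, adjusted p = 0.223) and 0.81 without the responders. Of the 11 tested checkpoint and exhaustion genes, 6 had p below 0.05 in the higher direction, and 2 without the responders. The shares over all genes were 9.18% and 2.45%. Lag3 had a log2 fold change of 0.74 ± 0.28 (SE), and Havcr2, which encodes TIM-3, 0.21 ± 0.12 (SE, adjusted p = 0.523). Foxp3, the transcription factor of regulatory T cells, had 7 of 8 treated tumors above all IgG tumors, at low counts (0.357 to 1.05 CPM in IgG and 0.442 to 5.68 in aPD-1), with a log2 fold change of 1.41 ± 0.42 (SE). Of the 10 regulatory T cell genes, 6 had p below 0.05 in the higher direction and 2 without the responders.

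Among 16 cytotoxic effector genes tested, 10 had p below 0.05 in the higher direction (median log2 fold change 0.94) and 3 without the responders (median 0.61). Among all genes tested, the shares were 9.18% and 2.45%. Gzmb, a granzyme, lay between 4.60 and 24.6 CPM in IgG (median 11.6) and between 12.1 and 67.3 in aPD-1 tumors (median 23.1), a log2 fold change of 1.07 ± 0.39 (SE), and perforin (Prf1) had 0.91 ± 0.38 (SE). Of the 2 responders, aPD-1 16 had the higher level of both (67.3 and 21.8 CPM), while aPD-1 15, at 20.9 and 9.81 CPM, lay inside the range of the non-responders. The level of T cell receptor genes was alike in both responders, with scores of 3.48 and 3.39 log2 units above the mean of all tumors.

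B cell and lymph node genes were high in both responders and low in the other 14 tumors. The lymph node list summed to at most 5.15 CPM in IgG and 9.78 CPM in NR tumors. Its score lay above all IgG tumors in 6 of 8 treated tumors. Cd79a, a chain of the B cell receptor, lay at 0 to 0.774 CPM in IgG, 0.181 to 0.771 in NR, and 218 and 53.1 CPM in aPD-1 15 and 16. All 7 B cell genes tested had p below 0.05 (median log2 fold change 5.58), and 0 of 7 without the responders (median 0.56), against 9.18% and 2.45% of all genes. With all 16 tumors the median was 3.37 in DESeq2, 2.34 in the fit by response status and 1.20 in limma-voom, where 0 of 7 had p below 0.05. Of 11 B cell genes, 4 did not pass the filter on low counts, Ms4a1 among them, although it stood at 199 and 58.2 CPM in the responders. Ccl21a and Cxcl13, chemokines of lymphoid tissue, reached 160 and 47.9 CPM in aPD-1 15 and lay at most at 0.596 and 0.680 CPM in IgG tumors. Glycam1, a marker of the high endothelial venules of lymph nodes, was untested and stood at 187 and 30.9 CPM in the responders against at most 1.01 CPM elsewhere. Fat genes moved with them: Adipoq was at 192 and 31.4 CPM in the responders against at most 9.14 CPM elsewhere, all 10 adipocyte genes had p below 0.05 (median log2 fold change 3.21), and the median was -0.37 without the responders. With all 16 tumors the adipocyte median was 0.94 in DESeq2 (1 of 10 with p below 0.05), 0.92 in the fit by response status (2 of 10) and 0.25 in limma-voom (0 of 10). Of all genes, 9.1%, 9.64% and 7.58% were higher at that p in these fits. The epithelial keratins Krt8, Krt18 and Krt19 were at 32.5, 33.9 and 31.0 CPM in aPD-1 15 and at most at 1.8 CPM in IgG and NR tumors. Lymph node, fat and epithelial RNA and the T cell genes thus stood high in the same 2 libraries, and their part in the differences of treated against control tumors was not tested beyond leaving both libraries out.

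Lists of myeloid cells differed among themselves. Of 16 macrophage and monocyte genes 2 had p below 0.05 in the higher direction (median log2 fold change 0.16). Over all genes, 9.18% were higher at that p with all 16 tumors, and 2.45% without the responders. Csf1r, the receptor that defines the lineage, had 0.07 ± 0.13 (SE, adjusted p = 0.900), C1qa 0.16 ± 0.08 and Adgre1 -0.13 ± 0.33. Arg1, which encodes the arginine-consuming enzyme arginase, lay between 87.3 and 183 CPM in IgG tumors (median 139) and between 111 and 711 in aPD-1 tumors (median 249), with 6 of 8 above all IgG tumors (log2 fold change 1.08 ± 0.30, SE, and 0.87 without the responders). Acod1, which makes itaconate in activated macrophages, had 7 of 8 treated tumors above all IgG tumors (1.03 ± 0.25, SE). Activating Fc receptor genes were higher too, Fcgr3 by 0.40 ± 0.10 and Fcgr4 by 0.69 ± 0.15 (SE) on the log2 scale. Fcgr1 had 0.13 ± 0.11 (SE, adjusted p = 0.737). The adaptor gene Tyrobp was higher by 0.34 ± 0.08 (SE). Fcgr3 and Fcgr4 were named after their values were seen. Of 9 neutrophil genes tested 4 had p below 0.05 in the higher direction (median log2 fold change 0.78), and 1 without the responders (median 0.59). S100a8, an alarmin gene of neutrophils, had the highest value of the list, 1.83 ± 0.77 (SE), at no more than 0.841 CPM in IgG and 4.29 CPM in aPD-1 tumors. Of 12 dendritic cell genes 7 had p below 0.05 in the higher direction (median 0.98), and 1 of 13 without the responders (median 0.24). The chemokine receptor gene of cross-presenting dendritic cells, Xcr1, lay between 0.447 and 1.8 CPM in IgG, between 0.968 and 2.57 in NR and at 7.85 and 5.71 in the responders. Of 11 mast cell genes 1 had p below 0.05 (median 0.55, and 0.27 without the responders). The macrophage and mast cell counts with all 16 tumors were thus near the share over all genes.

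Fewer genes were lower in aPD-1 tumors, and the 10 of smallest p were Prkar2a, Rmrp, Mvd, Rpph1, Slc5a3, Hsph1, Col6a1, CT010467.1, Elovl6 and Arsj. Of these, 3 rest on 1 library: Rmrp, Rpph1 (the RNAs of RNase MRP and RNase P) and the ribosomal RNA entry CT010467.1 were at 413, 486 and 260700 CPM in IgG 3 and at most at 3.22, 6.10 and 5013 CPM in the other IgG tumors. DESeq2 gave them adjusted p values of 0.372, 0.428 and 0.307. Prkar2a (chr9:108689314-108750436), a regulatory subunit of protein kinase A, ranged from 108 to 152 CPM in IgG tumors (median 128) and from 83.1 to 120 in aPD-1 tumors (median 106), with 5 of 8 treated tumors below all IgG tumors. Its log2 fold change was -0.34 ± 0.09 (SE, adjusted p = 0.223) and -0.26 without the responders. Hsph1, a heat shock chaperone gene, also had 5 of 8 below (177 to 343 CPM in IgG, 126 to 210 in aPD-1), with a log2 fold change of -0.53 ± 0.15 (SE), and Col6a1, a collagen VI chain, 4 of 8 (-0.44 ± 0.12, SE). Slc5a3, the sodium and myo-inositol cotransporter gene, ranged from 59.7 to 126 CPM and from 47.4 to 77.6 CPM (-0.53 ± 0.14, SE).

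Cholesterol synthesis genes were lower on average in aPD-1 tumors. The study is about cholesterol metabolism, so this list is not an independent choice. Of 18 enzymes of the pathway, 13 had p below 0.05 in the lower direction and 0 in the higher (2.23% of all genes were lower), with a median log2 fold change of -0.46. Without the responders 5 of 18 did (median -0.37), and with IgG 1 left out 16 of 18 did (median -0.58). Over all genes, 1.06% and 9.88% were lower in those fits. Mvd (chr8:122433601-122443422), which makes isopentenyl diphosphate from mevalonate diphosphate, ranged from 13.2 to 30.9 CPM in IgG tumors (median 22.5) and from 13.2 to 16.7 in aPD-1 tumors (median 15.3). The treated tumors lay in a narrow range that 2 IgG tumors, 1 and 8, also reached, and the log2 fold change was -0.55 ± 0.15 (SE, adjusted p = 0.223). Hmgcs1, at the entry of the pathway, ranged from 56.2 to 220 CPM in IgG (median 163) and from 80.7 to 128 in aPD-1 tumors (median 98.5), a log2 fold change of -0.56 ± 0.20 (SE). Lss, which closes the sterol rings, had -0.52 ± 0.16 (SE). Sqle, the epoxidase before that step, had -0.45 ± 0.20 (SE, adjusted p = 0.416), and Ebp, a late isomerase, 0.04 ± 0.10 (SE, adjusted p = 0.928). Elovl6, which lengthens fatty acids, ranged from 38.1 to 121 CPM in IgG (median 100.2) and from 45.6 to 79.9 in aPD-1 tumors (median 58.2), IgG 1 being the lowest of all 16. Its adjusted p of 0.224 was 0.0431 without IgG 1. Of the 13 genes of sterol control, uptake and transport, 3 had p below 0.05 in the higher and 1 in the lower direction (median log2 fold change 0.09). Over all genes the shares were 9.18% and 2.23%.

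On the score of the cholesterol synthesis list, 0 of 8 treated tumors lay above the IgG median of 0.32. In IgG tumors 6 scores lay between 0.28 and 0.59, IgG 8 at -0.17 and IgG 1 at -0.82, and the treated tumors between -0.40 and 0.09 with the responders at the low end (-0.40 and -0.39). IgG 1 and 8 were thus the IgG tumors with the highest GTPase scores and the lowest cholesterol synthesis scores.

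**Figure D5:**
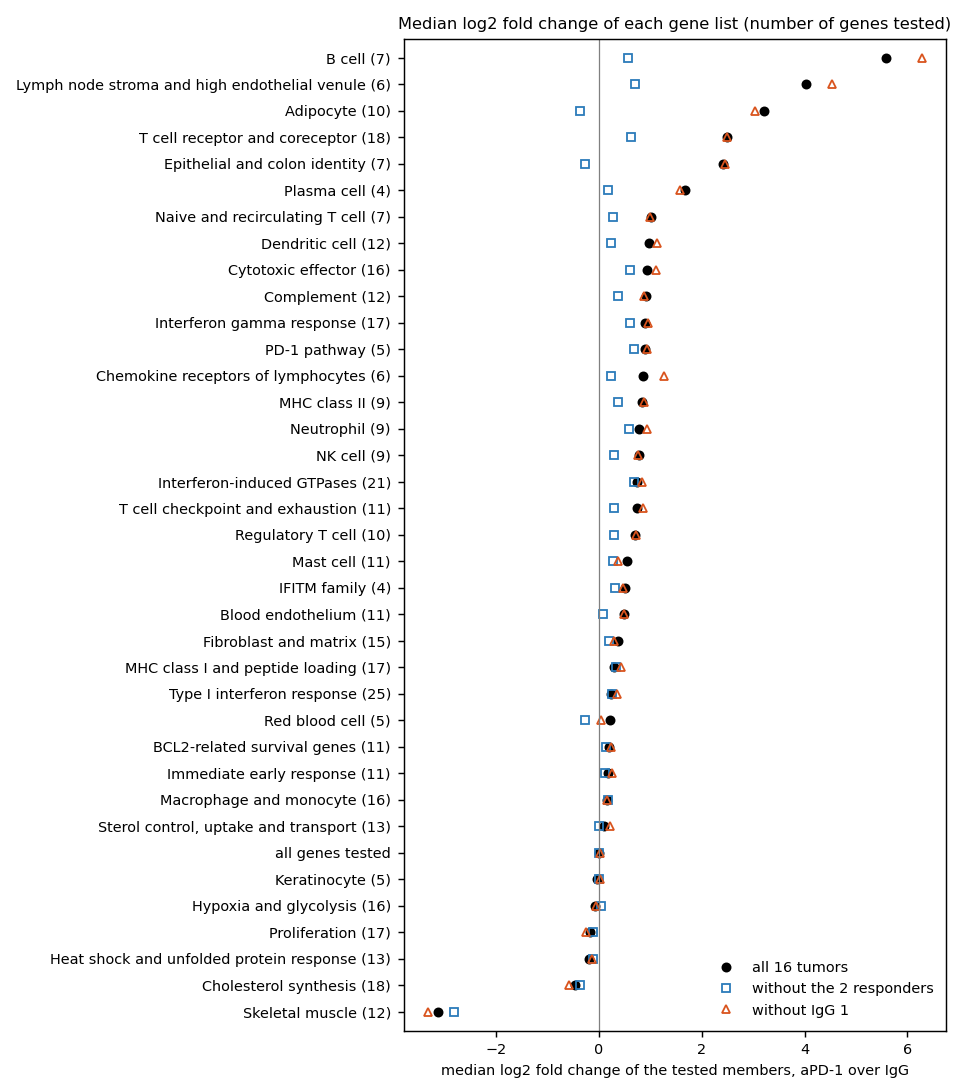
Median log2 fold change of aPD-1 over IgG tumors for the gene lists and for all genes tested (number of genes tested in brackets), with all 16 tumors, without the 2 responders and without IgG 1. Without the responders the median of the interferon GTPases is 0.68 (0.75 with them), that of the T cell genes 0.61 (2.48 with them), and those of adipocyte and epithelial genes are below 0.

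Other lists had smaller values or rested on single tumors. Of 17 proliferation genes 2 had p below 0.05 in the lower direction (median log2 fold change -0.18), and all 17 were below 0, while 2.23% of all genes were lower at that p. Without IgG 1 the count was 9 of 17 (median -0.26, against 9.88% of all genes). It was 5 of 17 in limma-voom (5.77% of all genes) and in the fit by response status (3.58%). Mki67 ranged from 372 to 505 CPM in IgG and from 296 to 444 in aPD-1 tumors (-0.21 ± 0.09, SE, adjusted p = 0.380). Of 15 fibroblast and matrix genes 2 had p below 0.05 in each direction, Col5a1 (-0.41 ± 0.13, SE) and Col6a1 in the lower direction. Thy1, which T cells also express, was among those in the higher direction, with a log2 fold change of 0.42 without the responders. Of 12 complement genes 8 had p below 0.05 in the higher direction (median log2 fold change 0.91) and 3 without the responders (0.37). C3 stood at 770 and 389 CPM in the responders against 18.9 to 124 elsewhere. Of 12 skeletal muscle genes, 9 had p below 0.05 in the lower direction (median -3.13), with IgG 6 far above the others: Acta1, muscle actin, was at 332 CPM there and at most at 16.5 CPM in the aPD-1 tumors. The direction turned without IgG 6, to a median of 0.89 with all 12 above 0 and 1 at p below 0.05 (8.17% of all genes were higher and 1.16% lower there), and in DESeq2, to 0.44, and in limma-voom the median was -0.08. Of 16 hypoxia and glycolysis genes 1 had p below 0.05 (median -0.07), and of 13 genes of heat shock and the unfolded protein response 3 did, in the lower direction (median -0.19). Of 11 BCL2-related genes, 6 had p below 0.05 in the higher direction (median 0.20), and 3 without the responders. Beside these counts of higher genes, 9.18% of all genes were higher with all 16 tumors and 2.45% without the responders. The plot of list medians shows these values side by side.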

How the data were processed

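A part of each tumor was frozen, its poly(A) RNA was sequenced with a strand-specific kit, and the authors aligned reads to GRCm38 with STAR 2.6 and Ensembl release 91 and deposited expected counts per gene from RSEM 1.3.0. RSEM shares reads between similar genes by estimate. Of the deposited values 7.84% were not whole, and expected counts were rounded. The table held 53465 genes and 92 spike-in entries that name no gene, which were left out. None of the tumors held more than 185 counts of these. Symbols and positions were taken from GENCODE mouse release 21 and matched 53274 genes. No 2 libraries were alike within sampling noise (lowest chi-square per degree of freedom 16.1).

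Tumors were grouped by treatment as labelled, 8 against 8. Genes were filtered with edgeR's filterByExpr and tested in R 4.3.3 with edgeR 4.0.16, TMM scaling, robust dispersion and the quasi-likelihood test, two-sided, with Benjamini-Hochberg adjustment. CPM values used TMM-scaled library sizes, and scores a prior count of 2. Alternatives were DESeq2 1.42.0, limma-voom (limma 3.58.1) with sample weights, median-of-ratios scaling, other filters, a fit of 3 groups by response status, and fits without the responders or without each tumor. Promoter windows were searched on both strands. The steps were tested on simulated counts.

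The named genes were the 10 of smallest p in each direction with a symbol and a mean of at least 50 counts, those whose groups do not overlap, the PD-1 pathway, and members of 37 gene lists. The comparison and the lists were chosen with earlier results of these data known.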

Additional observations from a re-analysis of the deposited data

Results flagged for a closer look

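Values far from the rest of their group were looked for in 64 groups of 8 tumors (4 library measures and 28 named genes, each in IgG and in aPD-1 tumors) with Dixon's criterion at 95%, which chance meets in about 1 in 20 groups; 10 values (15.6%) met it. In the IgG group they belonged mainly to IgG 1 and IgG 3. IgG 1 had the lowest total, 26603449 counts against at least 33717434 in the other IgG tumors, and the highest mitochondrial share, 7.60% against at most 3.21%. In IgG 3 the 50 most abundant genes took 32.5% of the counts against at most 19.5% elsewhere in the group, the ribosomal RNA entry CT010467.1 stood at 260700 CPM against at most 5013, Rmrp at 413 CPM against at most 3.22, and Rpph1 at 486 CPM against at most 6.10, so the lower values of these 3 genes in aPD-1 tumors rest on that library. IgG 5 had the highest Bcl2a1d of its group, 13.5 CPM against at most 11.9. Among aPD-1 tumors, aPD-1 15 had the lowest Arsj, 18.4 CPM, and the highest Ptpn6, 179 CPM against at most 93.9, and aPD-1 16 had the highest Pdcd1lg2, 13.7 CPM against at most 3.67. Both are the tumors labelled as responders.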

How the results depend on the processing

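No paired analysis was possible because the tumors carry numbers 1 to 16 across both groups and no 2 tumors share one. Of the alternatives, genes called higher and lower (0 and 0 with all 16 tumors) came to 88 and 3 in DESeq2, 78 and 7 in limma-voom, 392 and 8 in the fit by response status, and 17 and 2 without both responders and IgG 1. Without IgG 1 and IgG 3 they came to 0 and 0 (smallest adjusted p 0.0603). The same held without IgG 1, aPD-1 9 and aPD-1 14 (smallest adjusted p 0.0645). With 1 tumor left out they ranged from 0 to 7 and 0 to 1, and the calls came without IgG 1. Genes at an unadjusted p below 0.05 (1448 higher and 352 lower) came to 3185 and 782 without a filter, where 30852 genes were tested, and to 390 and 169 without both responders. Those lower came to 911 in limma-voom, 565 in the fit by response status, 1374 without both responders and IgG 1, and 1350 without IgG 1 and IgG 3, and without IgG 1, aPD-1 9 and aPD-1 14 they were 2269 higher and 1166 lower. With 1 tumor left out they ranged from 759 to 2203 higher and from 185 to 1572 lower; the cause was not tested. The sets without 2 or 3 named tumors, and a fit of nuclear protein-coding genes only (0 called, 1339 and 337 at an unadjusted p below 0.05), were chosen after seeing the data.

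Without both responders the median log2 fold change was 0.61 for T cell receptor genes, 0.30 for NK cells, 0.56 for B cells, 0.18 for plasma cells, 0.70 for lymph node stroma, 0.24 for dendritic cells and 0.23 for chemokine receptors, and it turned to -0.28 for epithelial and -0.37 for adipocyte genes. With all 16 tumors, limma-voom gave smaller medians than edgeR for dendritic cells (0.29, edgeR 0.98), NK cells (0.31, edgeR 0.78), lymph node stroma (1.18, edgeR 4.02) and epithelial genes (0.31, edgeR 2.42), and turned that of hypoxia and glycolysis from -0.07 to 0.13. In limma-voom 3 of 9 MHC class II and 16 of 17 MHC class I genes had p below 0.05 in the higher direction (7.58% of all genes did). In edgeR without IgG 1, 15 of 17 class I genes did (13.9% of all genes). For the 28 genes named by p, by non-overlap or for the PD-1 pathway, 699 values under the alternatives kept direction and side of the threshold, 54 passed it where the value with all 16 tumors did not, and 0 reversed. Most of these genes were chosen by their values in the same tumors, and none was called with all 16. The alternatives reuse most of those tumors, so these counts are no measure of how stable the genes are. At 26603449 to 39948866 counts per tumor, the depth limits what can be said of genes under about 1 CPM.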
